A study of Macaca mulatta with 20 samples.

Results

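Helper T cells of 5 female rhesus macaques, all adult, were followed along social dominance rank. These cells make up 5 of the 20 arrays of the series, and they were chosen by the label that names the cell type. Each of the 5 animals gave 1 helper T cell array and held a different rank, written 1 for the highest and 5 for the lowest, in a different social group. The labels name no treatment or genotype. The cells came from peripheral blood mononuclear cells, and cytotoxic T cells, B cells and monocytes of the same animals were profiled on the other 15 arrays. With 1 animal per rank, the rank, the animal and its social group cannot be told apart, and there is no second animal to give the spread within a rank.

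Helper T cells recognise antigen through the T cell receptor together with the CD4 co-receptor, and they direct other immune cells through cytokines. Engagement of the receptor activates the kinases FYN and ZAP70 and the adaptor LAT, opens the ORAI1 calcium channel and moves NFAT factors to the nucleus. In social primates low status is often studied as a chronic stressor, and lymphocytes respond to stress hormones through the glucocorticoid receptor, which induces genes such as TSC22D3 and KLF9. The study is about social behavior and gene regulation, and the comparison here asks which helper T cell transcripts were ordered by rank.

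The levels are on a log scale that is read here as log2, since the base is not stated, and fold sizes depend on that reading. Every helper array had its median at 8.39 and its quartiles at 8.04 and 9.21, so a level near 8 is in the dim part of the array. CD3D, which carries the signal of the T cell receptor, was bright in all 5 helper arrays, at 13.59, 12.99, 13.84, 13.49 and 13.90 log2 at ranks 1 to 5. CD4 was dim, at 8.38, 8.34, 8.59, 8.22 and 8.85. CD14, the monocyte co-receptor for lipopolysaccharide, lay between 8.01 and 8.29, and CD79B of the B cell receptor between 8.04 and 8.35. Among the defining markers CD3D was thus bright and CD4 dim. CD4 lay below the median of the array at ranks 1, 2 and 4 and above it at ranks 3 and 5. CD14 and CD79B lay below the median in all 5 arrays, but at rank 4 CD4 (8.22) was below CD14 (8.29). CD8A, a marker of cytotoxic T cells, was at 10.62, 10.72, 9.50, 8.31 and 11.29, above CD4 in all 5 arrays. The other cytotoxic chain, CD8B, lay between 7.79 and 8.01.

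No helper T cell transcript passed the test for a slope along rank. For each of the 7303 probes a line was fitted through the 5 helper values, and its slope is the change in log2 level per rank step, where a positive slope means higher levels in lower-ranking animals. With limma and Benjamini-Hochberg adjustment over all probes, 0 of 7303 passed an adjusted p of 0.05 (0.00%), and the smallest adjusted p was 0.77. Without adjustment, 407 probes had a p under 0.05 (5.57%), 193 with a positive slope (2.64%) and 214 with a negative slope (2.93%). Fits without the animal of rank 2, 4 or 5 gave 236, 745 and 174 such probes. The median absolute slope was 0.034 log2 per step, and the median standard error (SE) was 0.039. All slopes named below are therefore descriptions of 5 animals.

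**Figure D1:**
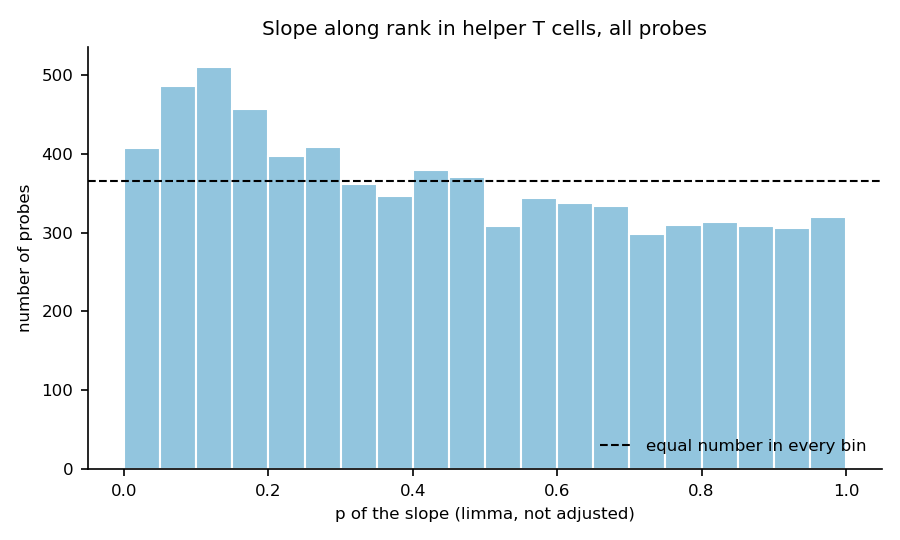
The number of probes (vertical axis) is plotted in 20 equal bins of the unadjusted p of the slope along rank in helper T cells (horizontal axis), with a dashed line at the 365.15 probes per bin of an even spread. The first bin, under 0.05, holds 407 probes, and the next, up to 0.1, holds 486.

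The order of the 5 animals was also read without a fitted line. In 97 probes (1.33%) the helper level moved the same way at all 4 rank steps. It moved upward from rank 1 to rank 5 in 44 (0.602%) and downward in 53 (0.726%). Of the 120 orders of 5 ranks, 2 run one way, a share of 0.0167, and the share of probes in order was below it. Full order was thus no more frequent than random order gives. Among the 5236 named genes, each described by its brightest probe, 33 ran upward (0.630%) and 35 downward (0.668%). A gene in full order has an exact two-sided permutation p of 0.0167, the smallest that the 120 orders of 5 ranks allow. It has this p by the way it was chosen. The 12 genes with the largest slope in each direction are described next, all with an adjusted p of 0.77 by limma.

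Genes with levels that were higher at each step toward low rank included PAG1, which restrains the T cell receptor. METTL22, a methyltransferase, had levels of 8.01, 8.23, 8.66, 8.71 and 8.94 at ranks 1 to 5, with a slope of 0.23 ± 0.03 log2 per step (SE, 5 animals), and an unadjusted p of 0.000846 by limma. PAG1, the membrane adaptor that recruits the inhibitory kinase CSK, had 9.26, 9.66, 9.82, 10.03 and 10.11, with a slope of 0.21 ± 0.03. The first step was its largest, and the animal of rank 1 stood below the others. NRROS, a protein that tethers latent TGF-beta, had 9.37, 9.39, 9.50, 9.83 and 10.16, so that ranks 1 to 3 were close and ranks 4 and 5 stood above them. TBCD, a tubulin-folding cofactor, had 8.75, 8.85, 8.95, 9.13 and 9.45 and a slope of 0.17 ± 0.03. DDT, a tautomerase related to the cytokine MIF, had 10.94, 10.98, 11.13, 11.27 and 11.42, with a slope of 0.13 ± 0.03. The other 7 had smaller slopes. DAXX, a histone chaperone, had a slope of 0.12 and the long noncoding RNA CYTOR of 0.11. TAPBP (0.09) loads peptide onto MHC class I, and its second probe was flat (0.01). TEDDM1 followed with 0.08, and SLC44A2, a choline transporter-like protein, SLC48A1, a haem transporter, and POFUT1, which fucosylates Notch receptors, each had 0.07.

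Genes with levels that were lower at each step toward low rank included ORAI1, the calcium channel of T cell activation, and STAT4, a transcription factor of the interleukin 12 response. ORAI1 forms the pore of the store-operated calcium channel. It had levels of 9.48, 9.33, 9.13, 8.84 and 8.70 at ranks 1 to 5, with a slope of -0.21 ± 0.03 log2 per step (SE, 5 animals), and an unadjusted p of 0.000435 by limma. Its steps were of similar size, and no animal stood apart. STAT4, which carries interleukin 12 signals in T cells, had 10.61, 10.48, 10.05, 9.97 and 9.88, with ranks 1 and 2 above the other 3 animals. CLINT1, an adaptor of clathrin-coated vesicles, had 11.999, 11.92, 11.53, 11.34 and 11.05 and the smallest p of all probes (unadjusted p of 0.000385 by limma), with a slope of -0.25 ± 0.03. MAPKAPK2, a kinase activated by p38, had 10.93, 10.88, 10.42, 10.36 and 10.27, and it divided the animals as STAT4 did.

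TP53INP1, a p53-induced protein of stress and autophagy, had 10.96, 10.71, 10.64, 10.36 and 9.83 at ranks 1 to 5. FBXO32, a ubiquitin ligase subunit, had 10.15, 10.14, 9.88, 9.76 and 9.20, and in both genes the drop was largest between ranks 4 and 5. The second FBXO32 probe had a slope of -0.11 against -0.23 for the first. RCSD1, a regulator of the actin capping protein, had the largest negative slope of the ordered genes, -0.35 ± 0.08, with levels of 10.52, 9.57, 9.19, 9.05 and 9.03. Most of that slope lay in the single step between ranks 1 and 2. USPL1, a SUMO protease, had 9.02, 8.68, 8.44, 8.39 and 8.08, with a slope of -0.22. YWHAH, a 14-3-3 protein, and TSSC4, a splicing factor, had slopes of -0.14, and CCDC50 had -0.12. MRPL38, a mitochondrial ribosomal protein, was at 8.32 in the rank 1 animal and between 7.64 and 7.72 in the other 4, so its slope of -0.14 rested on 1 dim array value.

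**Figure D2:**
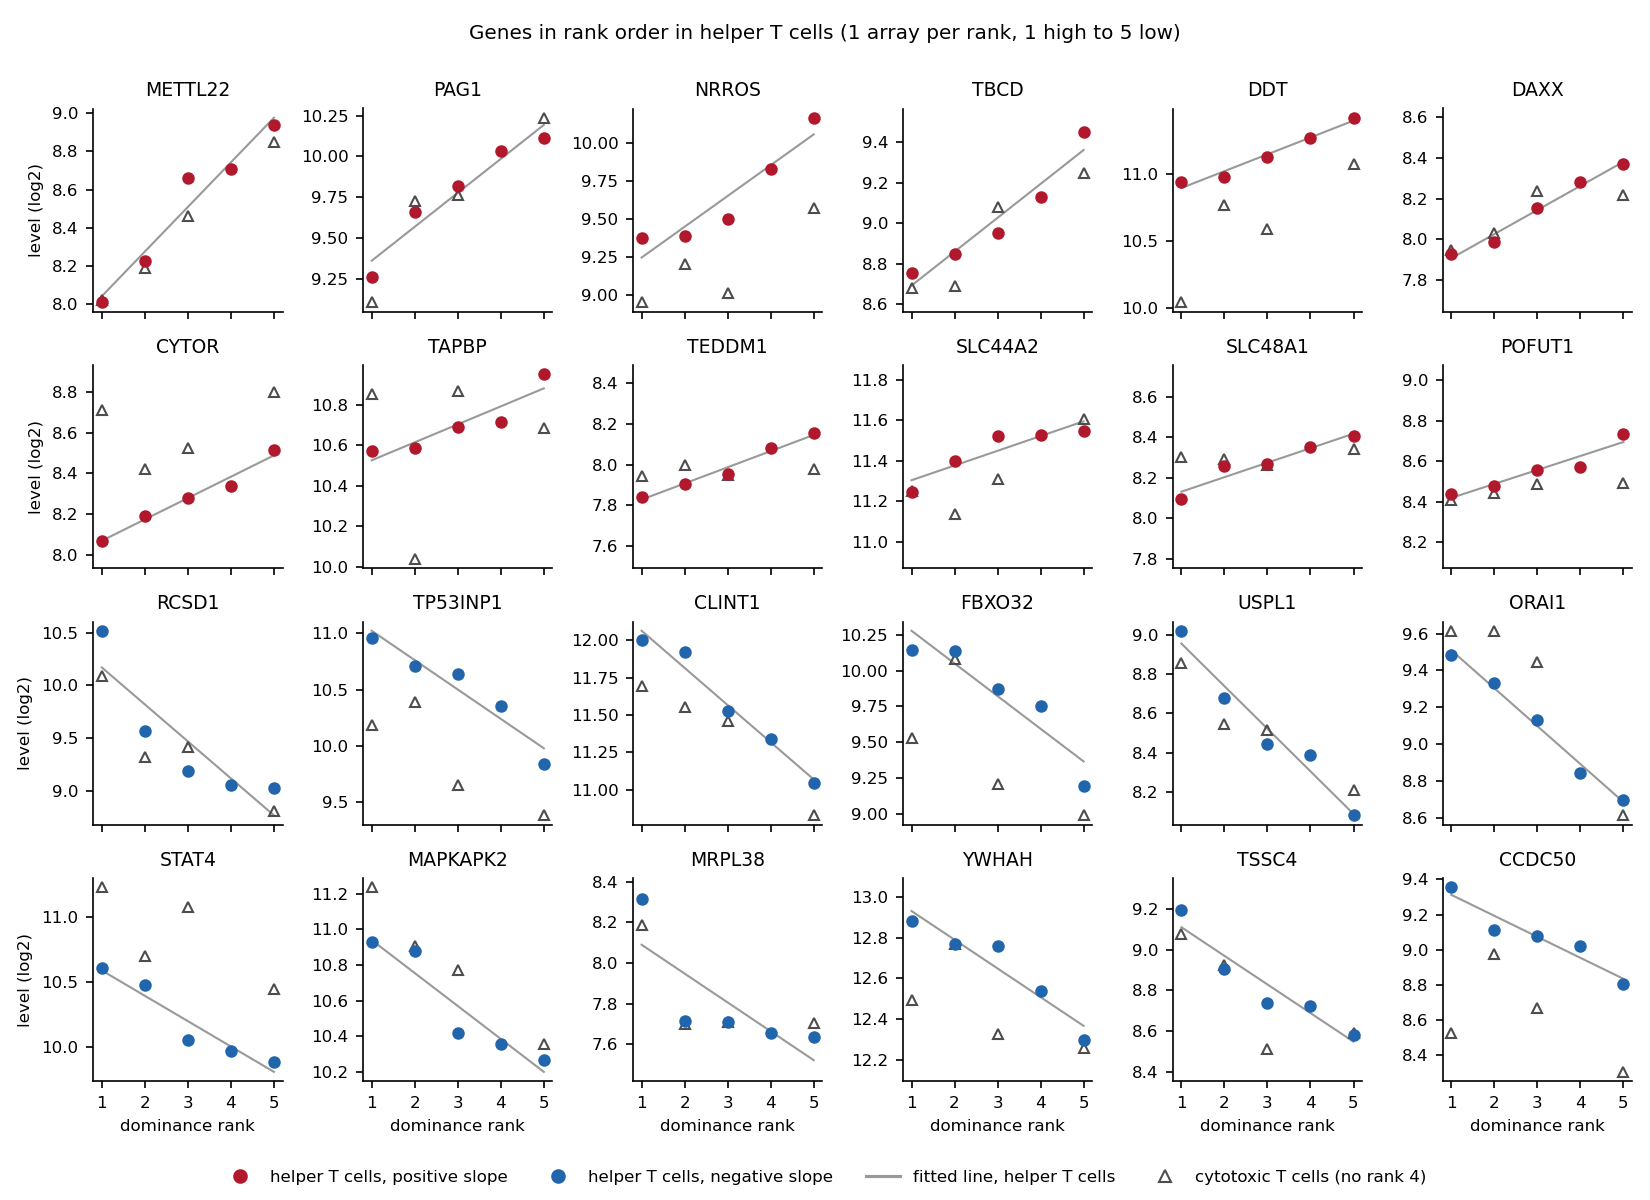
Levels in log2 (vertical axes, each spanning at least 1 log2) are plotted against dominance rank (horizontal axes, 1 high to 5 low) for the 24 genes in full rank order with the largest slopes, 1 panel a gene and 1 array a point. Filled circles are helper T cells, red for positive and blue for negative slopes, with the fitted line in grey. Open triangles are cytotoxic T cells of the same animals, without rank 4. ORAI1 moves in similar steps, whereas RCSD1 and MRPL38 drop mainly between ranks 1 and 2.

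Genes of the T cell identity and receptor lists had mostly positive slopes, and 0 passed the adjusted test. The lists hold genes of known function, but they were chosen with earlier results of these data known, so their counts are descriptions and no independent evidence. Of 12 measured T cell markers, 10 had a positive slope (51.1% of all genes) and 2 a negative one (48.9% of all genes), with a median of 0.11 log2 per step against 0.00 for all 5236 genes. CD5, a receptor that dampens T cell receptor signals, had 9.26, 9.37, 9.61, 9.55 and 9.98 at ranks 1 to 5, a slope of 0.16 ± 0.04 and the one unadjusted p under 0.05 in that list (0.00731 by limma, where the adjusted p was 0.77). CD3E (0.13 ± 0.07), CD3G (0.15 ± 0.24) and IL7R, the interleukin 7 receptor (0.16 ± 0.13), had errors nearer to the size of their slopes. CD3G levels were 11.69, 10.18, 11.87, 10.61 and 12.22, low in ranks 2 and 4. The T cell marker list was highest in the rank 5 animal in 9 of 12 genes, where that array was highest in 1528 of 7303 probes. The median slope of the list was 0.04 without that animal and 0.06 without the animal of rank 2.

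In the list of proximal receptor signalling 9 of 11 slopes were positive (51.1% of all genes were), with a median of 0.07. ZAP70 and LAT count in both lists. In 7 of the 11 genes the rank 5 array was highest, and the median was 0.04 without that animal. CSK, the kinase that PAG1 recruits to restrain FYN, had 10.20, 9.49, 11.64, 10.32 and 11.69 at ranks 1 to 5. It was high in ranks 3 and 5 and not ordered by rank (slope 0.38 ± 0.21). PTPN6, a phosphatase that also dampens the receptor, had a slope of 0.19 ± 0.09, LAT 0.13 ± 0.06 and BCL10, an adaptor toward NF-kappaB, -0.17 ± 0.10. ZAP70 ran in full order in small steps, with 9.69, 9.73, 9.75, 9.81 and 9.99. NFATC3, a calcium-responsive transcription factor named after its values were seen, had 8.77, 8.84, 9.05, 9.01 and 9.15. Its 2 probes had slopes of 0.09 and 0.10, with unadjusted p of 0.0181 and 0.0149 by limma.

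Helper and naive T cell genes showed little order. Of 6 measured helper genes, 3 had positive and 3 negative slopes, with CD4 at 0.08 ± 0.06, CTLA4, an inhibitory receptor, at -0.06 ± 0.03, CCR4, a chemokine receptor, at -0.03 and BATF, a transcription factor, at -0.03. The 95% interval of the CD4 slope ran from -0.08 to 0.25. Of 5 naive T cell genes, ACTN1, an actin crosslinker, had a slope of 0.11 ± 0.05, FOXO1 -0.09 ± 0.05 and KLF2 -0.08 ± 0.06, both transcription factors of resting T cells. LEF1, a Wnt pathway factor, was at -0.01 ± 0.07. The 4 slopes of this list other than ACTN1 were negative (48.9% of all genes were).

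Cytokine pathway genes had slopes in both directions, and STAT4 had the smallest p among them. Of 10 JAK and STAT genes, 3 had positive and 7 negative slopes (48.9% of all genes were negative), with a median of -0.04 and with STAT4 the one with an unadjusted p under 0.05 (0.00244 by limma, where the adjusted p was 0.77). PIAS1, an inhibitor of STAT proteins, had a slope of -0.18 ± 0.13 and STAT5A, which acts downstream of interleukin 2 and 7, -0.18 ± 0.10. STAT5A levels were 10.19, 10.50, 9.59, 10.20 and 9.45, low in ranks 3 and 5. SOCS2, a feedback inhibitor, was at -0.06 ± 0.10. In 7 of the 10 genes the rank 5 array was lowest, as it was in 1628 of 7303 probes. The median of the list was -0.01 without that animal, -0.09 without the animal of rank 1 and -0.06 without that of rank 2. Of 7 cytokine receptors, 5 had positive and 2 negative slopes (51.1% of all genes were positive). Their median was 0.03, and -0.06 without the animal of rank 5. The interferon gamma receptor chain IFNGR1 had -0.24 ± 0.12, TGFBR2 -0.17 ± 0.13 IL7R 0.16 ± 0.13 and the common gamma chain IL2RG 0.09 ± 0.05. The remaining 3, named to complete the list, were IL6R (0.06 ± 0.03), IFNAR2 (0.03 ± 0.06) and TNFRSF1A (0.0089 ± 0.08).

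Of 10 NF-kappaB pathway genes 8 had negative slopes (48.9% of all genes were negative), with a median of -0.06. CHUK, the alpha subunit of the kinase that releases NF-kappaB, ran in full order, with 9.45, 9.41, 9.37, 9.29 and 9.17 (slope -0.07 ± 0.02, an unadjusted p of 0.0421 by limma). It was named after its values were seen. RELB had a slope of -0.14 ± 0.12, the inhibitor NFKBIA -0.11 ± 0.07, NFKB1 -0.10 ± 0.07 and TRAF6 -0.09 ± 0.05. Without the animal of rank 5 the median of the list was -0.0024, and 6 of its 10 genes were lowest in that animal, against the 1628 of 7303 probes given above.

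Genes that glucocorticoids are known to induce had negative or near-flat slopes, and 0 passed the adjusted test. Of 16 measured genes of the glucocorticoid list, 6 had positive and 10 negative slopes (48.9% of all genes were negative). The median was -0.03, and it was -0.02 without the animal of rank 5 and -0.05 without that of rank 1. An unadjusted p under 0.05 was found in 0 with a positive and 4 with a negative slope, where 3.06% of all genes had such a negative slope. Since the list was chosen with earlier results known, nothing is read from that difference. DUSP1 (0.02 ± 0.08), SGK1 (0.01 ± 0.04), PER1 (-0.01 ± 0.03) and CEBPD (-0.0045 ± 0.03), also induced by the hormone and named after their values were seen, had slopes smaller than their errors. TSC22D3, the glucocorticoid-induced leucine zipper, had 13.17, 13.25, 12.78, 12.49 and 12.60 at ranks 1 to 5, with a slope of -0.19 ± 0.05 (an unadjusted p of 0.0115 by limma). Ranks 1 and 2 lay above the other 3 animals, and its second probe had a slope of -0.22. ZBTB16, a zinc finger factor induced by the hormone, had 8.62, 8.63, 8.40, 8.33 and 8.01 and a slope of -0.15 ± 0.03. KLF9 had 12.86, 12.95, 12.67, 12.79 and 12.38 and a slope of -0.11 ± 0.04. ZBTB16 and KLF9 were named after their values were seen. SMAP2, which acts in membrane traffic, had 13.06, 13.15, 12.18, 12.27 and 11.90 and a slope of -0.32 ± 0.07.

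The receptor and its chaperones are in the same list. NR3C1, the glucocorticoid receptor, had 8.80, 8.998, 8.499, 8.59 and 8.54 and a slope of -0.09 ± 0.05, with a 95% interval of -0.22 to 0.03. HSP90AB1 (0.15 ± 0.10) and STIP1 (0.13 ± 0.11), chaperones of the receptor, had positive slopes. TXNIP had -0.16 ± 0.07 and CXCR4, a chemokine receptor, -0.30 ± 0.17. TXNIP reached 14.77, the highest value that the arrays share, at ranks 2 and 3. The 4 genes with a negative slope and an unadjusted p under 0.05 became 2 without the animal of rank 5, and 3 or 4 without any 1 of the other animals. The FKBP5 gene was not analysed here.

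Interferon genes had slopes in both directions, and immediate early genes varied between animals with little order by rank. ISG15, an interferon-induced ubiquitin-like protein, had 8.71, 7.83, 9.19, 10.05 and 10.09 at ranks 1 to 5 (slope 0.50 ± 0.15, an unadjusted p of 0.0215 by limma). IFI44, also interferon-induced, had 9.75, 9.30, 8.68, 8.45 and 8.93 and a slope of -0.25 ± 0.10 in the opposite direction. IFI6 had -0.20 ± 0.13 and IFITM1 0.18 ± 0.10. The 10 interferon genes held 7 positive and 3 negative slopes (51.1% of all genes were positive). PPP1R15A, a stress-induced phosphatase subunit, had the largest slope of all genes, 0.63 ± 0.16, with an unadjusted p of 0.0102 by limma. Its levels were 8.90, 10.34, 11.02, 11.89 and 11.28, lowest in rank 1 and highest in rank 4. FOS, an early transcription factor, had 12.92, 9.62, 12.13, 13.31 and 11.54, with no order by rank. FOSB (-0.13 ± 0.26) and IER5 (0.24 ± 0.13) varied likewise. Of 11 immediate early genes, 8 were highest in the rank 4 array and 6 were lowest in the rank 2 array. Over all 7303 probes the rank 4 array was highest in 1456 and the rank 2 array lowest in 1859. For the immediate early genes the mean level was 10.52, 9.80, 10.27, 11.19 and 10.27.

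Among respiratory chain genes UQCRC2 (0.16 ± 0.05) and NDUFA1 (0.15 ± 0.04) had unadjusted p of 0.0161 and 0.0192 by limma, whereas NDUFS7 (0.18 ± 0.11) and NDUFV2 (-0.15 ± 0.08) did not reach 0.05. Of those 12 genes 8 had positive and 4 negative slopes (51.1% of all genes were positive). BAX, a promoter of cell death, had a slope of 0.11 ± 0.04 (an unadjusted p of 0.0461 by limma), while CASP8 (-0.12 ± 0.14), BCL2L11 (-0.08 ± 0.03) and BBC3 (-0.06 ± 0.05) were negative. Among heat shock genes HSPH1 had -0.29 ± 0.12, MT2A, a metallothionein, -0.05 ± 0.14 and DDIT3 -0.04 ± 0.13. CXCL8, an inflammatory chemokine, had -0.17 ± 0.17, and PTGS2, CXCL10 and CCL2 had slopes of at most 0.03. The cell cycle list had its largest slopes in CDKN1A (-0.10 ± 0.07), an inhibitor of the cycle, CCND3 (0.09 ± 0.12), MCM7 (0.06 ± 0.07) and MCM3 (0.05 ± 0.05).

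Among homing genes ITGB7, a gut-homing integrin chain, had 0.13 ± 0.20, CX3CR1 -0.11 ± 0.13 and SELPLG 0.04 ± 0.04. Of the MHC genes HLA-F had -0.24 ± 0.32, B2M 0.05 ± 0.04 and CD74 -0.04 ± 0.05. The ribosomal protein genes RPL13 (0.24 ± 0.13), RPL6 (-0.09 ± 0.07), RPL9 (0.07 ± 0.06) and RPL24 (0.06 ± 0.04) were mixed. Among 3 measured housekeeping genes TBP, a general transcription factor, had -0.20 ± 0.12, TFRC -0.10 ± 0.05 and EEF1A1 -6e-04 ± 0.06. Over all 26 lists, 214 genes were measured and 18 of them (8.41%) had an unadjusted p under 0.05 in either direction. Of all 5236 genes, 314 had such a p in either direction. Split by direction, 8 of the 18 had positive slopes, where 2.94% of all genes had such a positive slope. The other 10 had negative slopes, where 3.06% of all genes had such a negative slope. The count of 18 became 10 without the animal of rank 2 and 31 without that of rank 4, and 0 genes passed the adjusted test.

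**Figure D3:**
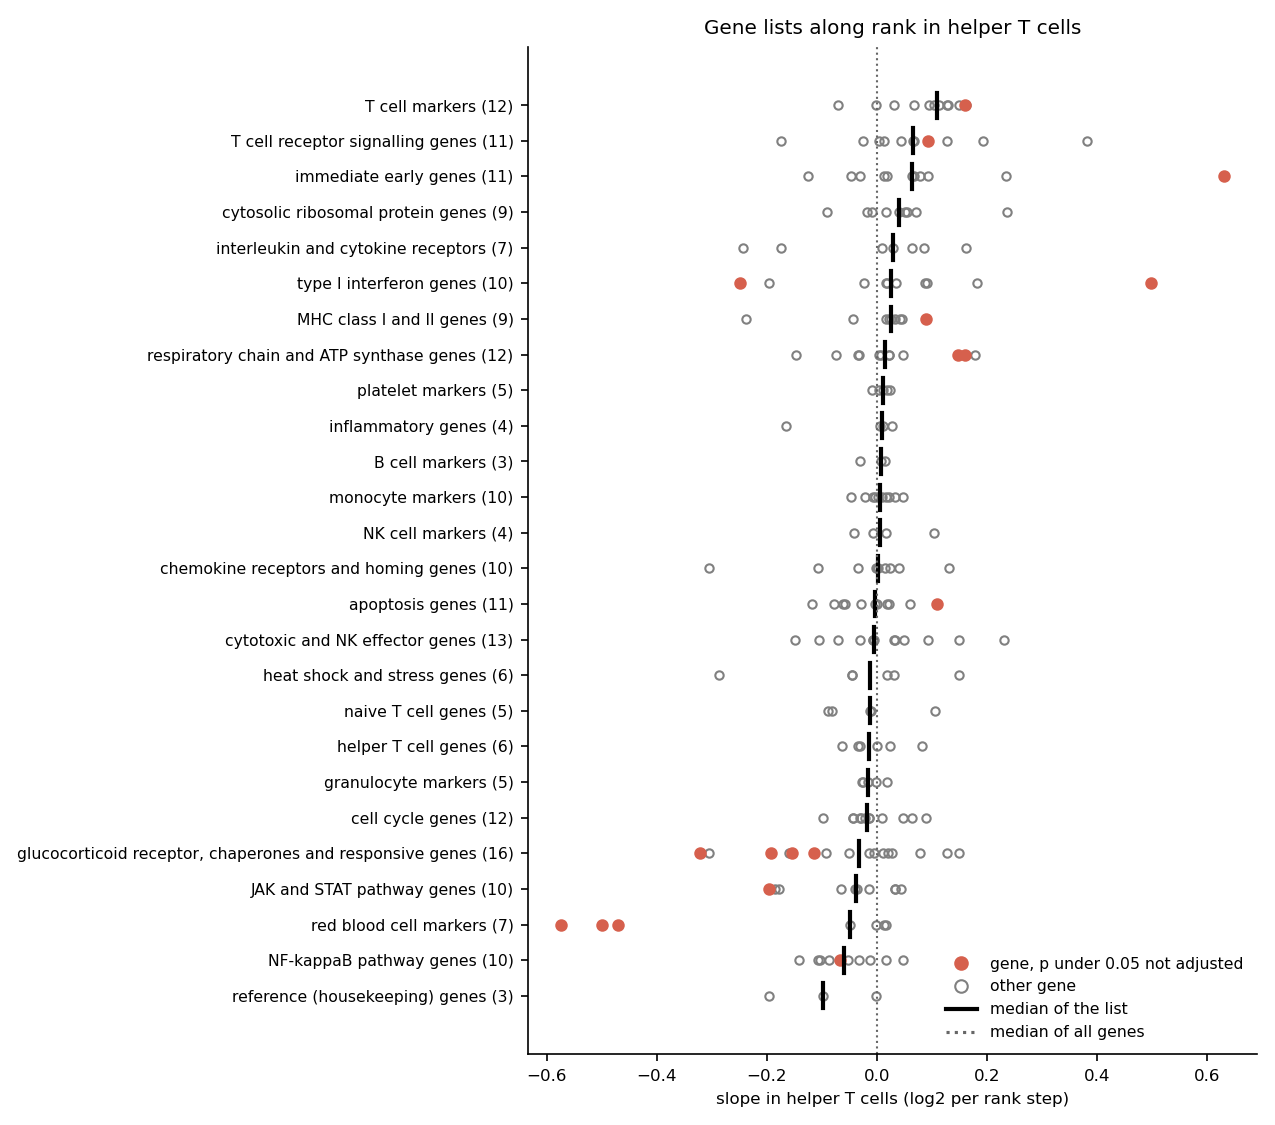
Slopes along rank in helper T cells (horizontal axis, log2 per rank step) are plotted for the measured genes of 26 lists (rows, number of genes in brackets), 1 point a gene, filled where the unadjusted p was under 0.05. Black bars are list medians and the dotted line is the median of all 5236 genes. The T cell markers have the highest median (0.11), and 3 globin genes have slopes between -0.57 and -0.47.

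Genes typical of other cells varied between the 5 helper arrays, some of them along rank. The globin genes HBA1, HBA2 and HBB of red blood cells had slopes of -0.57 ± 0.18, -0.50 ± 0.19 and -0.47 ± 0.14 (unadjusted p of 0.0223, 0.0456 and 0.0205 by limma). These slopes were not particular to helper T cells, since the same 3 genes had negative slopes in each other cell type of these animals. In monocytes the slopes were -0.59, -0.53 and -0.65. Cytotoxic T cells had -0.69, -0.68 and -0.74, while B cells had -0.58, -0.47 and -0.415, each without the rank 4 array. The helper level of HBA1 was 12.46, 12.39, 10.28, 11.24 and 10.17 at ranks 1 to 5, high in ranks 1 and 2. Without the animal of rank 1, 2 or 5, 0 of the 3 helper slopes had an unadjusted p under 0.05. The other 4 red cell genes, HBD, HBM, ALAS2 and AHSP, were at most 8.15, and the list mean was 10.20, 10.20, 9.38, 9.81 and 9.28. Genes of cytotoxic cells were not ordered by rank, but 11 of 13 were lowest in the rank 4 helper array and 10 of 13 were highest in the rank 5 array. Over all probes the rank 4 array was lowest in 1243 of 7303 and the rank 5 array highest in 1528. The mean of that list was 9.25, 9.40, 8.97, 8.44 and 9.81.

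CD8A, a chain of the CD8 co-receptor, had 10.62, 10.72, 9.50, 8.31 and 11.29, while CD8B lay between 7.79 and 8.01. GZMH, a granule protease, had 12.43, 12.75, 11.69, 10.61 and 12.76 (slope -0.15 ± 0.25), GNLY 10.19, 9.68, 9.51, 9.18 and 11.18 (0.15 ± 0.21) and GZMK 8.54, 8.99, 9.73, 8.53 and 9.93 (0.23 ± 0.16). Among NK cell markers KLRF1 had 8.33, 8.44, 8.23, 7.95 and 9.09, highest in rank 5. The slope of KLRF1 was 0.10 ± 0.11, with NCR3 at -0.04 ± 0.06, NCAM1 at 0.02 ± 0.03 and KLRC1 at -0.01 ± 0.04 log2 per step. Monocyte, B cell, platelet and granulocyte lists had means between 7.84 and 8.01 in all 5 arrays and slopes between -0.05 and 0.05. Their largest slopes were in CD14 (0.05) and CST3 (-0.05) for monocytes, BANK1 (-0.03) for B cells, GNG11 (0.02) for platelets and MPO (-0.03) for granulocytes. In cell populations measured in bulk, fewer cells of a type and less RNA per cell cannot be told apart. Whether these transcripts came from other cells or from helper T cells was not tested, nor was their part in the slopes above.

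The helper arrays that resembled each other most were not neighbours in rank. Over probes, the arrays of ranks 3 and 5 correlated at 0.98, as did those of ranks 1 and 4, whereas ranks 2 and 5 correlated at 0.93. The first principal component, which describes the main direction of difference, held 59.8% of the variance. Its scores were -7.67, -17.66, 14.61, -6.93 and 17.65 at ranks 1 to 5, so that ranks 3 and 5 lay on one side. This division was partly along rank, since ranks 1 and 2 lay on the other side from rank 5. The same 2 animals had the highest correlation of any pair in monocytes (0.98 for ranks 3 and 5) and in cytotoxic T cells (0.98). In B cells their correlation (0.976) was about that of ranks 1 and 2 (0.977). The labels name no slide, scan or extraction batch, so its part was not tested. The line along rank took up 30.3% of the sum of squares between helper arrays, with 25% for 1 of the 4 degrees of freedom.

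The genes that varied most between the 5 helper T cell arrays differed in how they stood along rank. Of the 12 with the largest SD, PPP1R15A, HBA1 and HBA2 had an unadjusted p under 0.05 by limma, with 76.1%, 67.8% and 58.1% of their variance along the rank line. Their exact two-sided permutation p was 0.05, 0.0833 and 0.183. The other 9 did not reach 0.05 by limma. CCDC134, a secreted protein, had the largest SD (2.21 log2), with 7.57, 12.46, 11.17, 10.96 and 7.69 at ranks 1 to 5. It was near the lowest value of the table (7.501) in ranks 1 and 5 and bright in the other 3 animals, and monocytes of the same animals had 7.62, 12.35, 10.57, 10.93 and 7.66. HLA-F, a nonclassical MHC class I gene, had 12.50, 12.04, 10.15, 10.06 and 12.31 in helper T cells and 12.12, 11.40, 9.84, 10.15 and 11.01 in monocytes. NRIP1, a nuclear receptor corepressor, had 10.58, 12.08, 9.35, 11.51 and 8.75, and RAC2, a GTPase of blood cells, 10.85, 9.07, 10.70, 9.49 and 12.12.

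HLA-DOB, an MHC class II chain of lymphocytes, was at 7.89, 7.90, 9.55, 7.81 and 10.41 in helper T cells at ranks 1 to 5. In cytotoxic T cells of ranks 1, 2, 3 and 5 it was at 7.83, 7.87, 9.12 and 10.22, the same 2 animals being high, while monocytes stayed between 7.83 and 8.22. APOD, a lipocalin, varied mainly in helper T cells, with 9.77, 8.21, 8.99, 8.79 and 11.09 against at most 7.88 in the other types without their rank 4 lymphocyte arrays. F5, coagulation factor V, was at 10.62 in rank 3 and between 8.18 and 8.39 in the other helper arrays. FOS, CD8A, PPP1R15A, HBA1 and HBA2 complete the 12 genes.

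**Figure D4:**
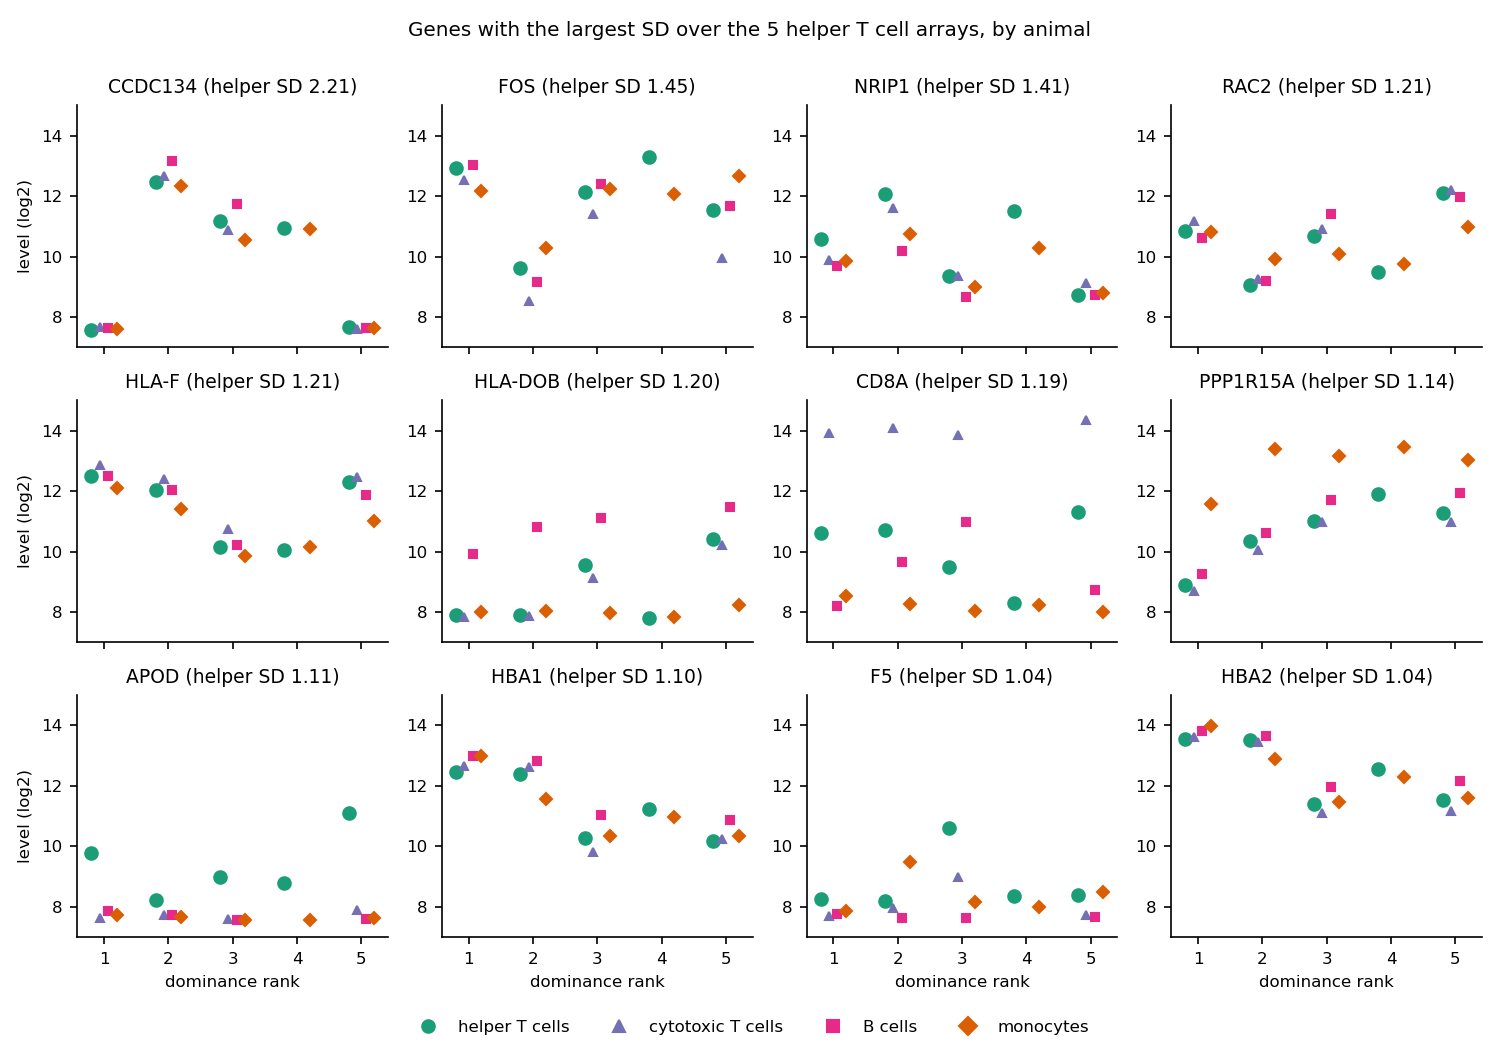
Levels in log2 (vertical axes, 7 to 15) of the 12 genes with the largest SD over the 5 helper T cell arrays are plotted by dominance rank (horizontal axes, 1 high to 5 low), 1 point an array and 1 colour a cell type, without the rank 4 cytotoxic and B cell arrays. CCDC134 is low in ranks 1 and 5 in all cell types shown, whereas APOD is above 8.2 in helper T cells and at most 7.88 in the other arrays shown.

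Slopes in helper T cells were next compared with slopes in cytotoxic T cells of the same animals. The rank 4 cytotoxic and B cell arrays correlated with the other 18 at only 0.148 to 0.193, so cytotoxic slopes used 4 arrays. On those arrays 918 probes had an unadjusted p under 0.05 (12.6%) and 0 an adjusted p under 0.05 by limma. All 12 upward and all 12 downward genes had a slope of the same sign in cytotoxic T cells, where 74.7% of all genes did. These shares are unlike, because the ordered genes were chosen for large helper slopes. Over all probes the median absolute helper slope (0.034) was below the median SE (0.039), so many signs are uncertain. Nothing is read from the difference of the shares. The median cytotoxic slope of the upward and downward genes was 0.09 and -0.18 log2 per step. ORAI1 had -0.21 ± 0.03 in helper and -0.26 ± 0.06 in cytotoxic T cells, PAG1 0.21 ± 0.03 and 0.26 ± 0.05, and METTL22 0.23 ± 0.03 and 0.21 ± 0.03. STAT4 had -0.20 ± 0.04 and -0.16 ± 0.07. TEDDM1 had 0.08 ± 0.02 and 0.0038 ± 0.03. Over 5236 genes the slopes of the 2 cell types correlated at r = 0.841, and at 0.869 with helper slopes from the same 4 ranks. In B cells, also on 4 arrays, 9 of the 12 upward and 11 of the 12 downward genes had the helper sign. The share over all genes was 71.9%, and it is unlike in the same way. Slopes in B cells correlated with those in helper T cells at r = 0.739. All sets come from the same animals, so differences between animals for any reason enter each of them.

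The difference between helper and cytotoxic slopes was first tested without the animal as a block. In that fit 0 of 7303 probes passed (0.00% at an adjusted p of 0.05, limma, smallest adjusted p = 1). An unadjusted p under 0.05 was found in 64 (0.876%). With the animal as a replicate block, 0 passed and 362 had an unadjusted p under 0.05 (4.96%). With the rank 4 cytotoxic array, 2 had. The genes and errors that follow come from the fit of 9 arrays without the block. That fit ignores the pairing, although deviations of helper and cytotoxic arrays of the same animal correlated at a median of 0.777. Its errors are therefore not those of the difference within animals, and the choice of genes rests on them. The smallest p of that fit belonged to BLMH, a peptidase, with helper levels of 8.57, 8.55, 8.65, 8.67 and 8.82. The slope of BLMH was 0.06 in helper and -0.04 in cytotoxic T cells (difference 0.10 ± 0.03). STK10 (0.19), DYRK1B (0.13), APAF1 (0.09) and DUSP6 (0.09) also had higher slopes in helper T cells. C17orf58 (-0.14), SUDS3 (-0.14), SNW1 (-0.12), SCARNA18 (-0.12) and KLF3 (-0.09) had lower ones. STK10 lay between 10.08 and 10.39 in helper T cells, and the other 9 were under 9.

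Slopes in monocytes of the same animals were set beside the helper slopes in turn. In monocytes alone 471 probes had an unadjusted p under 0.05 (6.45%) and 0 an adjusted p under 0.05 by limma. Of the 12 upward genes 9 and of the 12 downward genes 8 had the same sign in monocytes, where 63.3% of all genes did. These shares are unlike in the way given above for cytotoxic T cells, and nothing is read from their difference. Slopes correlated at r = 0.417 over genes. METTL22 was alike (0.23 ± 0.03 in helper T cells, 0.24 ± 0.05 in monocytes). TP53INP1 ran the other way, with monocyte levels of 8.93, 8.68, 9.64, 9.41 and 9.91 and slopes of -0.26 ± 0.04 in helper T cells and 0.27 ± 0.08 in monocytes. STAT4 had 0.02 ± 0.04 in monocytes, where it was dim (7.80 to 8.08). PAG1 (7.66 to 7.94) and DDT (7.62 to 7.75) were also dim in monocytes. At such levels a slope can hardly be seen, so no absence of a monocyte slope is read from these genes. ISG15 had 0.50 in helper T cells and -0.38 in monocytes.

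In the test of the difference without a block, 0 of 7303 probes passed (0.00% at an adjusted p of 0.05, limma, smallest adjusted p = 1). An unadjusted p under 0.05 was found in 285 (3.90%). With the replicate block these counts were 0 and 453 (6.20%). The genes and errors that follow come from the fit without the block. It too ignores the pairing, with a median correlation of 0.408 between deviations of helper and monocyte arrays of the same animal. TP53INP1 (difference -0.53 ± 0.10), CRKL, a signalling adaptor (-0.35 ± 0.07), JAML (-0.35 ± 0.08), PSMA2, a proteasome subunit (-0.33 ± 0.07), and SIRPB2 (-0.23 ± 0.04) had the smallest p with a lower helper slope. CRKL was at 11.40, 11.48, 10.93, 10.97 and 10.76 in helper T cells and at 10.10, 9.94, 10.22, 10.59 and 10.65 in monocytes. On the other side stood MT1G, a metallothionein (0.74 ± 0.11), HMOX1, haem oxygenase (0.69 ± 0.14), TESK1 (0.26 ± 0.06), TOB1, an antiproliferative protein (0.25 ± 0.06), and CD5 (0.18 ± 0.05). MT1G and HMOX1 were dim in helper T cells, at 7.98 to 8.39 and 7.95 to 8.11, and their monocyte slopes were -0.75 and -0.67. CD5 was at most 7.62 in monocytes.

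**Figure D5:**
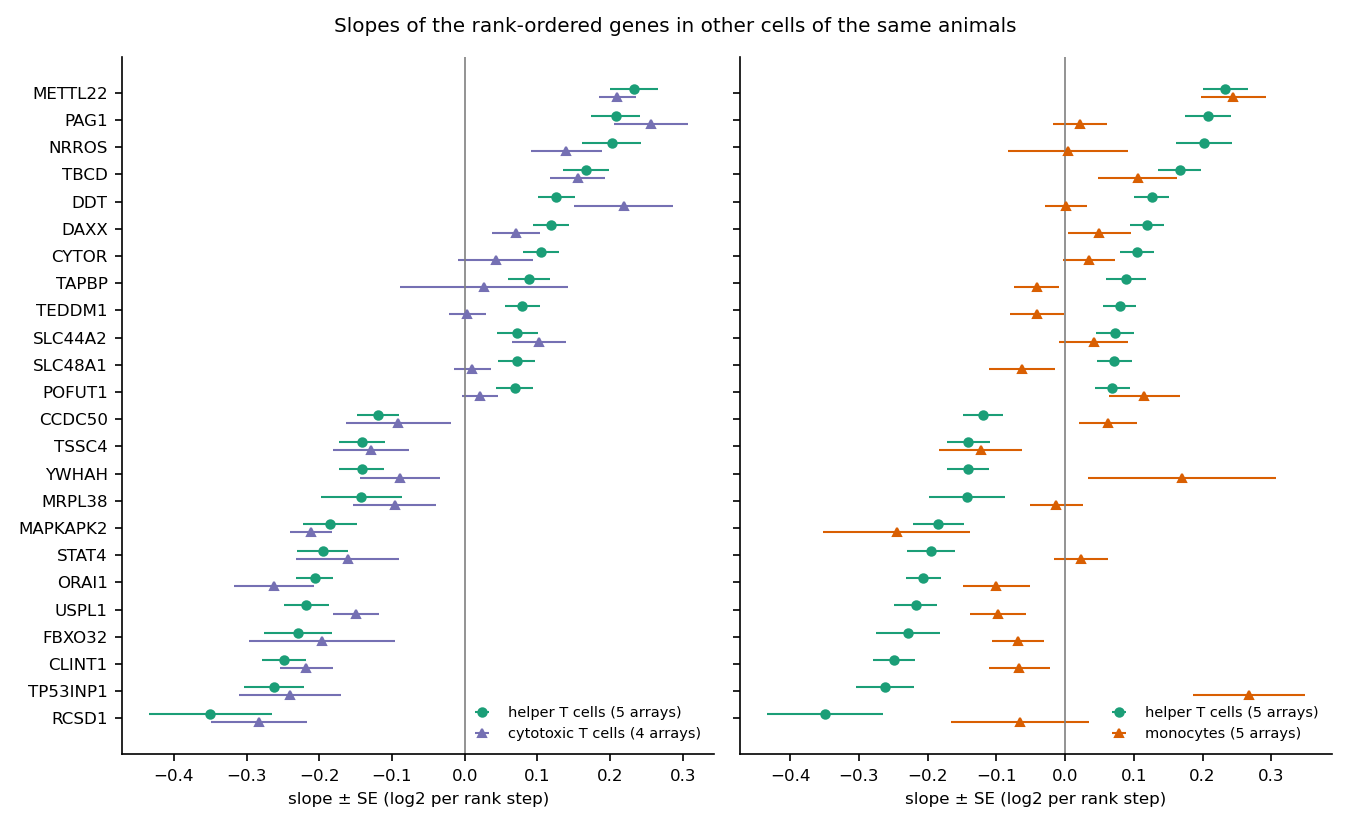
Slopes along rank (horizontal axes, log2 per rank step, bars ± SE) of the 24 rank-ordered genes (rows) are plotted for helper T cells (green circles) beside cytotoxic T cells (purple triangles, left) and monocytes (orange triangles, right) of the same animals. All 24 cytotoxic slopes lie on the helper side of 0, and TP53INP1 has slopes of opposite sign in helper T cells and monocytes.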

How the data were processed

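Biotin-labelled cRNA from 4 blood cell populations was hybridised to Illumina arrays, per the labels. The deposited values are expression levels on a log scale, read here as log2. They share 1 common distribution in all arrays, as quantile normalization gives, and the submitters' processing notes name lumi with no steps. The log base is not stated, and a variance-stabilised scale cannot be told apart from log2. The 2 deposited tables, 1 of them named as not normalized, are identical. The probes are human designs, and each was compared with itself across animals. How well a probe matches the sequence of each animal was not tested, and with 1 animal per rank it cannot be told apart from rank. Of 7303 probes, 6055 carry 1 symbol in the platform annotation, 1 several and 1247 none, giving 5236 genes (4940 also in the RefSeq macaque table). A gene is its probe with the highest mean over the helper arrays.

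Slopes were fitted with limma 3.58.1 in R 4.3.3 (lmFit, eBayes) on 5 helper arrays, two-sided, adjusted by Benjamini-Hochberg over all probes; differences of slopes used 10 (monocytes) or 9 (cytotoxic) arrays without a block. Deviations of same-animal arrays correlated at a median of 0.408 (helper with monocytes) and 0.777 (helper with cytotoxic), and titles give the animal, so the replicate block is printed beside. Named were the 12 ordered genes per direction with the largest slope, any gene past the adjusted threshold, the 5 per direction with the smallest p, the 12 with the largest SD, up to 4 per list, 8 fixed genes and 5 per direction and difference. Members and lists were chosen with earlier results of these data known. The code was tested on simulated data.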

Additional observations from a re-analysis of the deposited data

Results flagged for a closer look

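In 5 of 153 named genes 1 helper array stood apart from the other 4, where chance marks about 1 group in 20. The gap to the nearest other array divided by the range exceeded Dixon's critical value of 0.71 in each. F5 was at 10.62 in the rank 3 array. MRPL38 was at 8.32 and IFI6 at 11.17 in the rank 1 array. CAMP was at 7.91 in the rank 2 array, a dim value. CD74 was at 7.91 in the rank 4 array, the lowest of the 5.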

How the results depend on the processing

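With 5 animals and 1 at each rank, the number of arrays limits every slope. No alternative gave a probe with an adjusted p under 0.05 for the helper slope or for either difference of slopes. For probes with an unadjusted p under 0.05, leaving out 1 animal gave 174 to 745 (helper slope), 109 to 443 (helper against monocytes) and 28 to 80 (helper against cytotoxic T cells). It gave 409 to 773 probes in rank order, since 4 arrays are ordered more easily than 5, and 10 to 31 list genes. Keeping only probes at or above the median level gave 221, 105 and 4, and 42 in rank order, from fewer probes. One fit of 20 arrays gave 65, and 503 without the 2 arrays that stand apart. The replicate block gave 453 (monocytes) and 362 (cytotoxic T cells), and the rank 4 cytotoxic array 2. The unmoderated fit gave 310.

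The 24 leading genes kept their sign by construction. Setting ranks 4 and 5 against 1 and 2 reversed LEF1 (0.0192), KLRC1 (0.0069), CD72 (-1e-04), FOSB (0.057), DDIT3 (0.0289) and EEF1A1 (0.0374). With the rank 4 cytotoxic array the differences of DUSP6 (-0.021) and DYRK1B (-0.0588) reversed. The cause was not tested. Leaving out 1 animal gave slopes on both sides of 0, from the lowest to the highest, in CD8A (-0.8136 to 0.133), CCR4 (-0.0729 to 0.0118), BATF (-0.1171 to 0.0399), LEF1 (-0.0549 to 0.0535), AIF1 (-0.0289 to 0.0516), S100A8 (-0.0025 to 0.0564), GP9 (-0.0066 to 0.0195), IFI6 (-0.3079 to 0.0823), FOSB (-0.3042 to 0.219), MT2A (-0.2401 to 0.0944) and DDIT3 (-0.1478 to 0.0978). It did so in SELPLG (-0.0036 to 0.0638), BBC3 (-0.0903 to 0.0181), HLA-F (-0.9228 to 0.072), EEF1A1 (-0.0492 to 0.0743), CD8B (-0.0229 to 0.0072), CSF3R (-0.0562 to 0.0185), FOS (-0.2208 to 0.6958), ITGB7 (-0.0267 to 0.4679), GZMH (-0.6525 to 0.0367), CD4 (-0.0237 to 0.1305) and CD3G (-0.154 to 0.4844). So it did in GNLY (-0.3195 to 0.4172), KLRF1 (-0.1344 to 0.1838), KLRC1 (-0.033 to 0.0595), CD72 (-0.0143 to 0.0176), ITGA2B (-0.0167 to 0.0139), IL2RG (-0.0054 to 0.1299), SOCS2 (-0.1072 to 0.0094), NFKB1 (-0.1587 to 0.017), CCND3 (-0.006 to 0.1671), CASP8 (-0.3479 to 0.0239) and NDUFV2 (-0.2229 to 0.0186).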
